A study of Mus musculus with 8 samples.

Results

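The distal end of mouse chromosome 6 was described probe by probe, from 136000000 to the end of the chromosome at 149517037 in the mm9 genome build, an interval of 13.5 Mb. Its members were 281 non-control probes of 181 gene names, out of 56605 non-control probes on the array, and the rest of chromosome 6 held 2825. The interval was chosen from the measured strain difference of these same arrays, because it holds Dera and Fgfr1op2 and other probes that differed. No measure of these samples was independent of that choice. The strain differences in it are therefore given as a description, and the adjusted p of the fit over all probes serves only to sort and count them, not as evidence for the interval.

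Cerebral cortex and striatum of male mice of 2 strains supplied the RNA, with 1 mouse per array. The 4 BTBR/R mice were BTBRTF/ArtRbrc, a subline of the inbred strain BTBR obtained from RIKEN BRC. The 4 B6 mice were C57BL/6J, the common reference strain, bought from Japan SLC. BTBR/R replicate 1 was 6 months old and every other mouse was 4 months old. No transgene or treatment is named for either strain, and the strains also differed in supplier and in slide column, which cannot be told apart from strain.

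Neighbouring genes on a chromosome are inherited together, so inbred strains that descend from different founders can differ along whole blocks of sequence. An array probe is a short fixed sequence that reads the strand of RNA it matches, and its brightness depends both on the amount of that RNA and on how well the RNA's letters and exons match the probe. Several probes that sit in different exons or ends of a gene can therefore give different readings of the same gene. The distal part of chromosome 6 carries genes with known roles in the brain, among them transporters of the blood-brain barrier, subunits of ATP-sensitive potassium channels and the transcription factor Sox5.

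The probes were 60 bases long. The first 30 bases, from the 5′ end, of the probes on which the description turns are printed here in lower case, with the position of the whole probe in mm9 and its strand, because probes of 1 gene gave different readings and their letters and places show which stretch each reads. Capitals mark bases that 2 probes of BC049715 have in common.

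Hist4h4, chr6:136752717-136752776, minus strand: gcggcgtgaagcgcatctcgggtctcatct
BC049715, chr6:136788994-136789053, plus strand: atatctttgtacttacgcaggTCCAGGGCA
BC049715, chr6:136789015-136789074, plus strand: TCCAGGGCAAGTAGAGGACAACATGTTCCT
BC049715, chr6:136789055-136789114, plus strand: AAAGCAGCTTGAGTTCTCGAatttttcatg
Dera, chr6:137730614-137730673, plus strand: ggccagcctgggttacatggaaaaaccatt
Dera, chr6:137786190-137786249, plus strand: taaatacacttaaaactgtgataaaaatga
Dera, chr6:137805742-137805801, plus strand: ttggtcttgactcagactttcaggacatgg
Aebp2, chr6:140596546-140596605, plus strand: tagttcatttatcaaagctacccaaagata
Aebp2, chr6:140603895-140603954, plus strand: gtgttcctcaaggttgacattctctgcctg
Lrmp, chr6:145123146-145123205, plus strand: acacatcttatggccatttaccagactcgg
Fgfr1op2, chr6:146535757-146535816, plus strand: aagttccatgacaaccaggggtacaaagag
Fgfr1op2, chr6:146537313-146537372, plus strand: tccacactagttatgggaatccagcaagaa
Fgfr1op2, chr6:146546687-146546745, plus strand: gaggatacaagacagttcaccaatagacaa
Stk38l, chr6:146716966-146717371, plus strand: tccaccgggacgtcaaaccagacaaccttt
Stk38l, chr6:146725000-146725059, plus strand: gctgagtttcagaaatgaccatgaaagctg
Rps4l, chr6:148304018-148304077, plus strand: tgaagtggactctgagggacattgcgggga

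The first and second BC049715 probes share 39 bases and the second shares 20 with the last, so these 3 probes are not independent readings. The Dera probes lie 55.6 kb and 19.6 kb apart and the Fgfr1op2 probes 1.56 kb and 9.37 kb apart, without any overlap. The Stk38l probe that begins at 146716966 has its 60 bases spread over 406 bases of the genome. Apart from the BC049715 probes, no probe of the genes described by name shared a run of 20 or more bases in the same orientation with any other probe of the array. The exception in the opposite orientation was a run of 20 bases of the first BC049715 probe, which a Ckmt1 probe carried as its reverse complement. The median GC content was 44.2% over the 6 probes called higher, 45% over the 15 called lower, and 41.7% over the 145 detected probes that were not called.

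Signals are given on a log2 scale, as the processed signal relative to its array's 75th percentile, here the scaled signal, and differences as BTBR/R minus B6 on that log2 scale. A probe was detected on an array where the scanner software marked it as well above background. A probe was called where its adjusted p in the limma fit over all 56605 probes was under 0.05, with a difference of 2-fold or more in size. Between 64.5% and 66.8% of probes were detected on a B6 array and between 53.5% and 57.2% on a BTBR/R array. The lowest detected scaled signal ran from -5.28 to -4.98 on the B6 arrays and from -3.97 to -3.55 on the BTBR/R arrays, so that a dim probe passed detection more readily in B6 mice. All 39 measured markers of 12 brain, vascular and blood cell types were detected on all 8 arrays. The 2 called markers were the red-cell genes Hba-a1 and Alas2. At any fold 9 markers had an adjusted p under 0.05, 8 of them lower in BTBR/R mice. Beside the red-cell pair these were the astrocyte markers Aqp4 (-0.28) and Aldh1l1 (-0.31), the oligodendrocyte marker Mog (-0.35), the microglial markers Aif1 (-0.25) and Cx3cr1 (-0.71) and the endothelial marker Cldn5 (-0.51), and the 1 higher was the endothelial marker Slc2a1 (0.20). The mean level of the 3 red-cell markers was 1.78 to 3.56 in B6 mice and 1.23 to 1.52 in BTBR/R mice, and that of the 3 microglial markers was 3.19 to 3.26 and 2.83 to 2.99. The part of cell composition in the differences below was not tested, and in tissue RNA fewer cells of a type and less RNA per cell cannot be told apart.

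Of the 281 members, 166 from 104 gene names were detected on all 4 arrays of one strain or of both, 123 of them on all 8 arrays, 38 on some arrays without filling a strain, and 77 on none. Without regard to detection 75 members were called, 59 of them higher in BTBR/R mice, where 22.4% of all probes of the array were called. Of these, 54 failed the detection rule, 53 were higher and 50 were detected on no array. The 77 members detected on no array had a median difference of 1.32, and the 14867 probes of the whole array detected on no array had one of 1.34, so that these values are not read further. One of the 54, the Slco1b2 probe at 141605178, was detected on 2 BTBR/R arrays and no B6 array. That probe of a liver transporter read -3.29 and -1.38 in BTBR/R replicates 1 and 2, -5.80 and -5.92 in replicates 3 and 4, and -7.38 to -7.09 in B6 mice.

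Among those 166 members, 21 probes of 16 genes were called. In BTBR/R mice 6 of them, from 4 genes, were higher and 15, from 13 genes, were lower, with 1 gene, Dera, in both. Probes of 1 gene, such as the overlapping probes of BC049715, are counted here as separate calls. The share of calls was 12.7% in the interval and 3.31% in the rest of chromosome 6 (54 of 1629), and 4.41% of such probes were called over the whole array, 1.03% higher and 3.38% lower. Because the interval was chosen on this contrast, nothing is read from that share. In all 21 the 4 arrays of one strain lay wholly above the 4 arrays of the other. The rule for a call itself favours such separation, so nothing is read from it. Among the 123 members detected on all 8 arrays, 6 were called (2 higher, 4 lower), and 2.2% of such probes were called over the whole array. The other 15 calls rested on a probe that was not detected on some or all arrays of the dimmer strain.

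**Figure D1:**
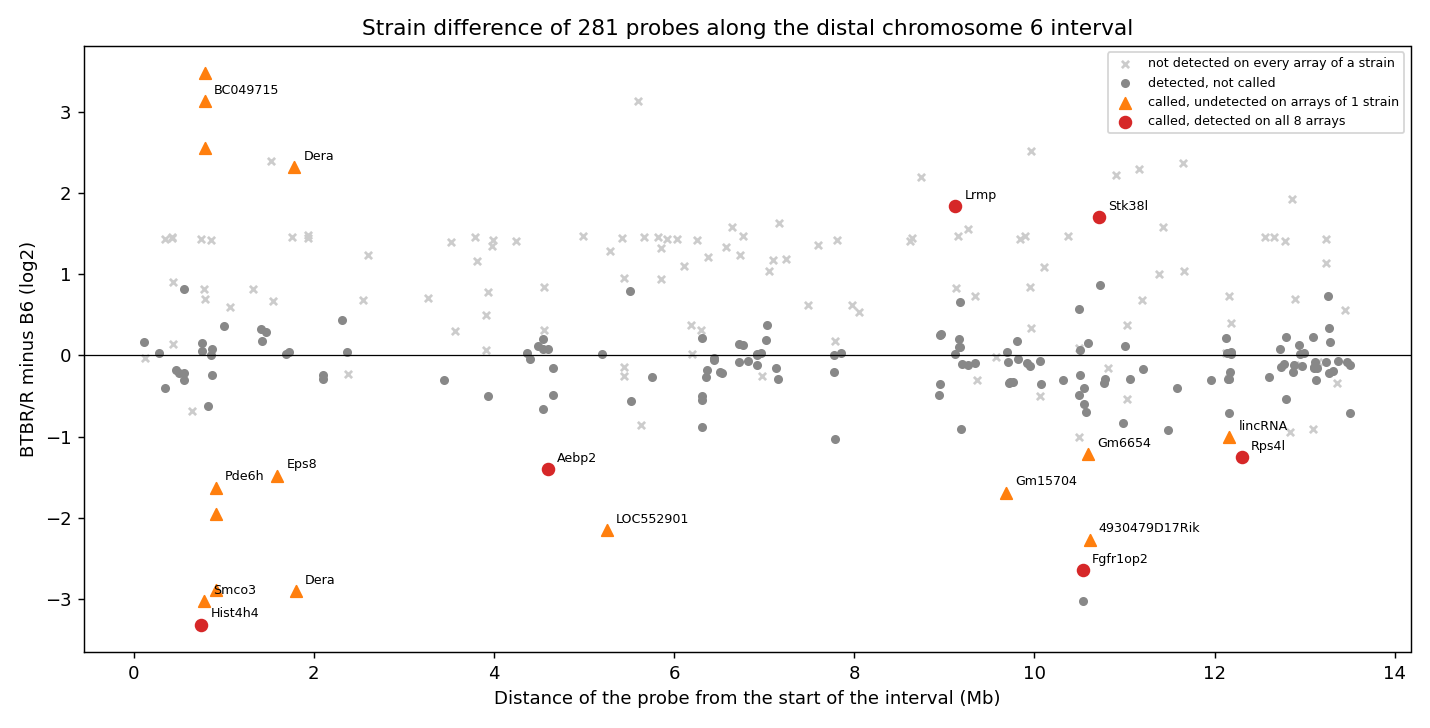
Difference between strains (vertical axis, BTBR/R minus B6, log2) of each of the 281 probes against its distance in Mb from the start of the interval. Red circles are called probes detected on all 8 arrays, orange triangles are called probes not detected on arrays of 1 strain, grey circles are detected probes that were not called, and crosses are probes not detected on every array of a strain. Of the 21 called probes, 11 lie in the first 2 Mb, where 10 are triangles and 1 is a red circle.

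Calls were counted along the interval, beside shares over the whole array of 4.41% of the probes that met the detection rule and 2.2% of those detected on all 8 arrays. In the first 2 Mb of the interval, 11 of 31 detected members were called (4 higher, 7 lower), all between 136752717 and 137805801. In the next 8 Mb there were 4 calls among 71 detected members (5.63%). In the 1 Mb after that, 4 of 20 were called within 182 kb, from Fgfr1op2 to Stk38l. In the remainder, 2 of 44 were called (4.55%). Both shares are near that of the whole array, and since the interval was chosen on this contrast no pattern is read from the counts. Of the 11 calls of the first 2 Mb, 10 were on probes not detected on some or all arrays of the dimmer strain, which entered only through the strain where they were brighter. On probes detected on all 8 arrays the calls were 1 of 20 in the first 2 Mb, 2 of 58 in the next 8 Mb, 2 of 12 in the 1 Mb after that and 1 of 33 in the remainder. With the normexp background correction described further on, 6 of the 11 were still called. The 1-Mb bin that holds Fgfr1op2 also had the largest median size of difference over its members detected on all 8 arrays, 0.48 over 12 probes, among the bins with a value. The bin that starts at 141 Mb followed at 0.42 over 4 probes. Those 12 include probes of Fgfr1op2, for which the interval was chosen, so nothing is read from this order.

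**Figure D2:**
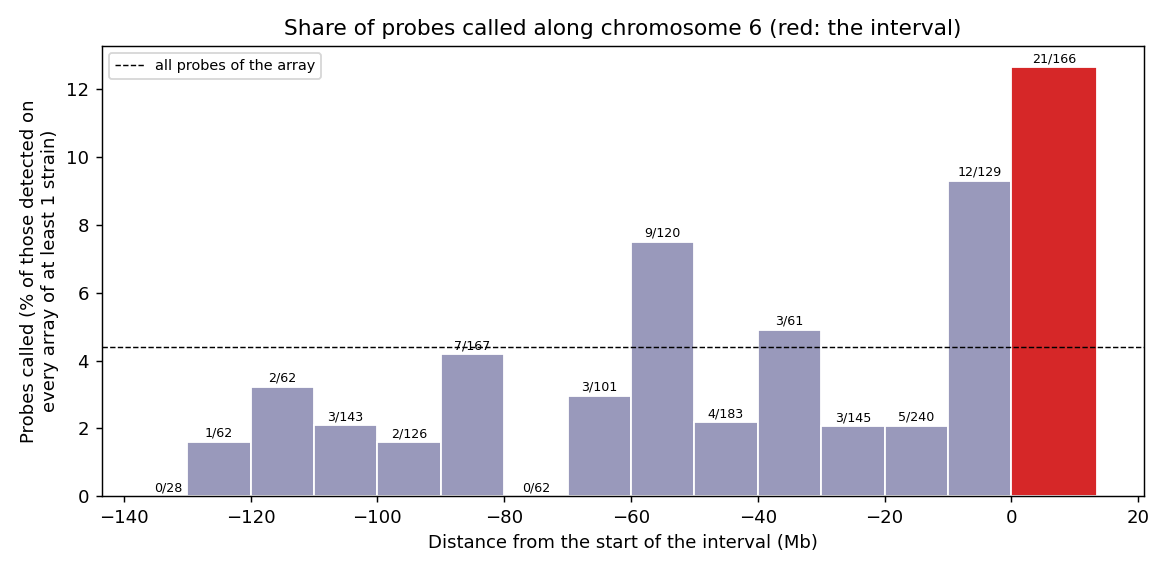
Share of detected probes called (vertical axis, %) in successive windows of chromosome 6, against distance in Mb from the start of the interval. The numbers give called over detected probes, the red bar is the interval, and the dashed line is the share over the whole array, 4.41%. The interval stands at 12.7% and the 10-Mb window before it at 9.30%.

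The borders of the interval were set by position, not by a step in the values. The last probe before it, the Grin2b probe at 135819781, differed by -0.03, and the first inside it, another Grin2b probe at 136121705, by 0.17 (Grin2b encodes a subunit of the NMDA glutamate receptor). The last member, the Bicd1 probe at 149505437, differed by -0.12. The 10-Mb window just before the interval had 12 of 129 detected probes called (9.30%), and shares in the other windows of the chromosome ran from 0 to 7.5%.

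The greatest fall among members detected on all 8 arrays was that of Hist4h4, a gene for the core histone H4. Its scaled signal was 2.32, 2.29, 2.31 and 2.32 in B6 replicates 1 to 4 and -0.92, -0.93, -1.10 and -1.08 in BTBR/R replicates 1 to 4. The strains were far apart, with little spread among mice of either, and the difference was -3.32 (SE 0.06), a 9.98-fold fall on a probe detected on all 8 arrays. The probe of its neighbour H2afj, an H2A histone gene 4 kb away, differed by 0.05. Smco3, a gene for a small membrane protein, was read by 1 probe at -2.16 to -2.86 in B6 mice and was not well above background on any BTBR/R array, where it read -5.94 to -5.26. This was a fall of at least 2.29-fold.

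BC049715, a gene known from a cDNA clone, gave the greatest rise as measured among the called probes. The probe at 136788994 read -1.92, -1.88, -2.22 and -2.17 in BTBR/R replicates 1 to 4 and was not well above background on any B6 array, at -4.61 to -5.52. This was at least 7.87-fold higher in BTBR/R mice, and the probe at 136789055 was at least 7.38-fold higher, with B6 again undetected on all 4 arrays. The probe between them, at 136789015, was detected on 2 B6 arrays and differed by 2.55 (SE 0.27). A further probe of BC049715 at 136781598, about 7 kb before the others, behaved otherwise. It was detected on a single array, that of BTBR/R replicate 3, where it read -1.004, against -5.18, -5.78 and -5.96 in the other 3 BTBR/R mice and -5.05 to -5.41 in B6 mice.

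All 3 probes of Pde6h, which encodes the inhibitory subunit of the cone photoreceptor phosphodiesterase, were detected on every B6 array and on no BTBR/R array. Their differences were -1.63, -1.95 and -2.89. Only the last, at 136917259, allowed a fold, of at least 1.58-fold, because the other 2 were dimmer in B6 mice than the BTBR/R detection level. Eps8, a regulator of actin dynamics, was called lower at 137596697 (-1.48), a probe that read -4.93 to -4.15 in B6 mice and was undetected in BTBR/R mice. The Eps8 probe at 137426698, detected on all 8 arrays, read 0.35 ± 0.17 in B6 mice and 0.54 ± 0.09 in BTBR/R mice (SD, n = 4), and these values overlapped. The remaining Eps8 probe, at 137475722, was detected on every B6 array and on 1 BTBR/R array and differed by 0.29 (SE 0.23), also with overlap.

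Dera, the deoxyribose-phosphate aldolase that breaks down deoxyribose phosphate, was read by 3 probes with different values. Only the probe at 137786190 matched a RefSeq symbol, and the others carry the name Dera by the array's annotation alone. The probe at 137730614 read 1.05, 1.04, 1.03 and 0.99 in B6 replicates 1 to 4 and 1.16, 0.88, 1.13 and 1.09 in BTBR/R replicates 1 to 4. The strains overlapped there, with a difference of 0.04 (SE 0.07). The probe at 137786190 read -2.79, -2.89, -2.95 and -2.68 in BTBR/R mice and -4.35, -5.76, -4.76 and -5.71 in B6 mice, where only replicates 1 and 3 were detected. It was called higher in BTBR/R mice, by 2.32 (SE 0.32) as measured, but with the normexp correction the difference was 0.70 and was not called. The probe at 137805742 went the other way, from -2.99, -3.10, -2.81 and -3.13 in B6 mice to undetected values of -6.14 to -5.75 in BTBR/R mice, at least 1.62-fold lower.

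**Figure D3:**
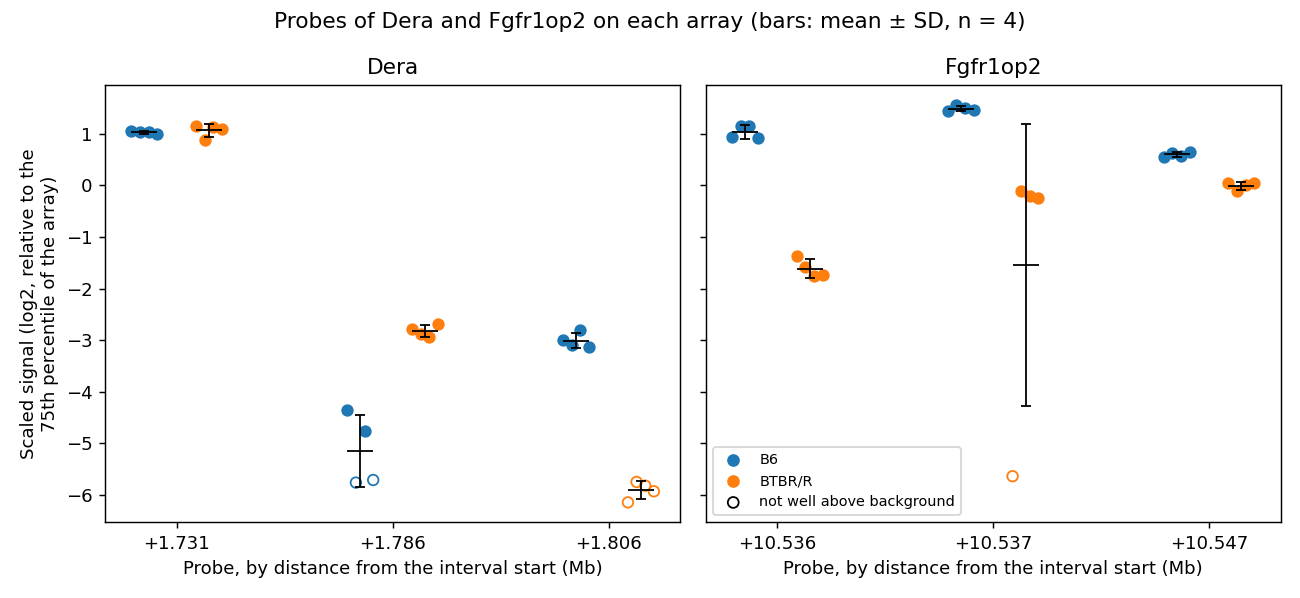
Scaled signal (vertical axis, log2 relative to the 75th percentile of the array) of the 3 detected Dera probes and the 3 Fgfr1op2 probes on each array, by distance from the interval start. Points are mice (blue B6, orange BTBR/R, open where not well above background), and bars are the mean and SD of 4 mice. Dera shows overlap, a rise and a fall from left to right, and Fgfr1op2 is lower in BTBR/R mice at each probe, with BTBR/R replicate 1 at -5.64 on the middle one.

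Aebp2, a cofactor of the Polycomb repressive complex PRC2, was called lower at 140603895, where it read 0.49, 0.35, 0.40 and 0.50 in B6 mice and -1.005, -1.004, -0.939 and -0.920 in BTBR/R mice, a difference of -1.40 (SE 0.05). The other Aebp2 probe, 7 kb before it and also detected on all 8 arrays, differed by 0.08 (SE 0.06) and its strains overlapped. The transcript LOC552901 fell to undetected values in BTBR/R mice, at least 1.39-fold. Its difference was -2.15, with BTBR/R replicate 3 at -4.08 and the other BTBR/R mice from -6.02 to -5.63.

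Lrmp, which encodes a membrane protein of the endoplasmic reticulum first described in lymphoid cells, was called higher in BTBR/R mice. It read -3.04, -2.74, -2.69 and -2.68 in B6 mice and -0.98, -1.11, -0.90 and -0.82 in BTBR/R mice, a difference of 1.84 (SE 0.10) on a probe detected on all 8 arrays. A probe of Casc1 on the opposite strand began 324 bases further on and differed by 0.01. Gm15704, a predicted gene, differed by -1.69 but was too dim in B6 mice for a fold.

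Fgfr1op2, a coiled-coil protein first found fused to the receptor FGFR1 in leukaemia cells, read lower in BTBR/R mice on all 3 probes without overlap between strains, by unequal amounts. At 146535757 it read 0.93, 1.15, 1.15 and 0.92 in B6 mice and -1.37, -1.59, -1.75 and -1.74 in BTBR/R mice. That difference of -2.65 (SE 0.11), a 6.26-fold fall, was called and detected on all 8 arrays. At 146546687 the difference was -0.60 (SE 0.06), from 0.60 ± 0.05 to -0.004 ± 0.08 (SD, n = 4), under 2-fold. At 146537313 the B6 mice read 1.43, 1.56, 1.49 and 1.46, and the BTBR/R mice -5.64, -0.10, -0.20 and -0.24. BTBR/R replicate 1, the 6-month-old mouse, was not well above background on this probe while it lay with its group on the other 2. This single value set the SD of the BTBR/R group at 2.73. The difference of -3.03 (SE 1.24) was not called, and without that mouse it was -1.67 and was called.

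Within 182 kb of the called Fgfr1op2 probe lay 3 further called probes. The predicted gene Gm6654 and the RIKEN clone 4930479D17Rik were undetected on every BTBR/R array and at least 1.06-fold and at least 1.12-fold lower there, with differences of -1.22 and -2.27. Stk38l, the kinase also known as NDR2, rose. Its probe at 146716966 read -2.93, -2.91, -2.29 and -2.88 in B6 mice and -1.06, -0.96, -1.12 and -1.05 in BTBR/R mice, a difference of 1.70 (SE 0.15). The second Stk38l probe, at 146725000, was higher in BTBR/R mice by 0.87 (SE 0.06), under 2-fold, and its strains did not overlap either. Both were detected on all 8 arrays.

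The last calls were a long non-coding RNA probe at 148164018 and Rps4l, a ribosomal protein S4-like gene. The former differed by -1.003 (SE 0.18), at the fold threshold, with BTBR/R undetected on every array and no fold allowed. Rps4l read 2.44, 2.20, 1.75 and 2.08 in B6 mice and 0.85, 0.70, 1.04 and 0.88 in BTBR/R mice, a difference of -1.25 (SE 0.15) on a probe detected on all 8 arrays. The spread among B6 mice was the wider, and the strains did not overlap.

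**Figure D4:**
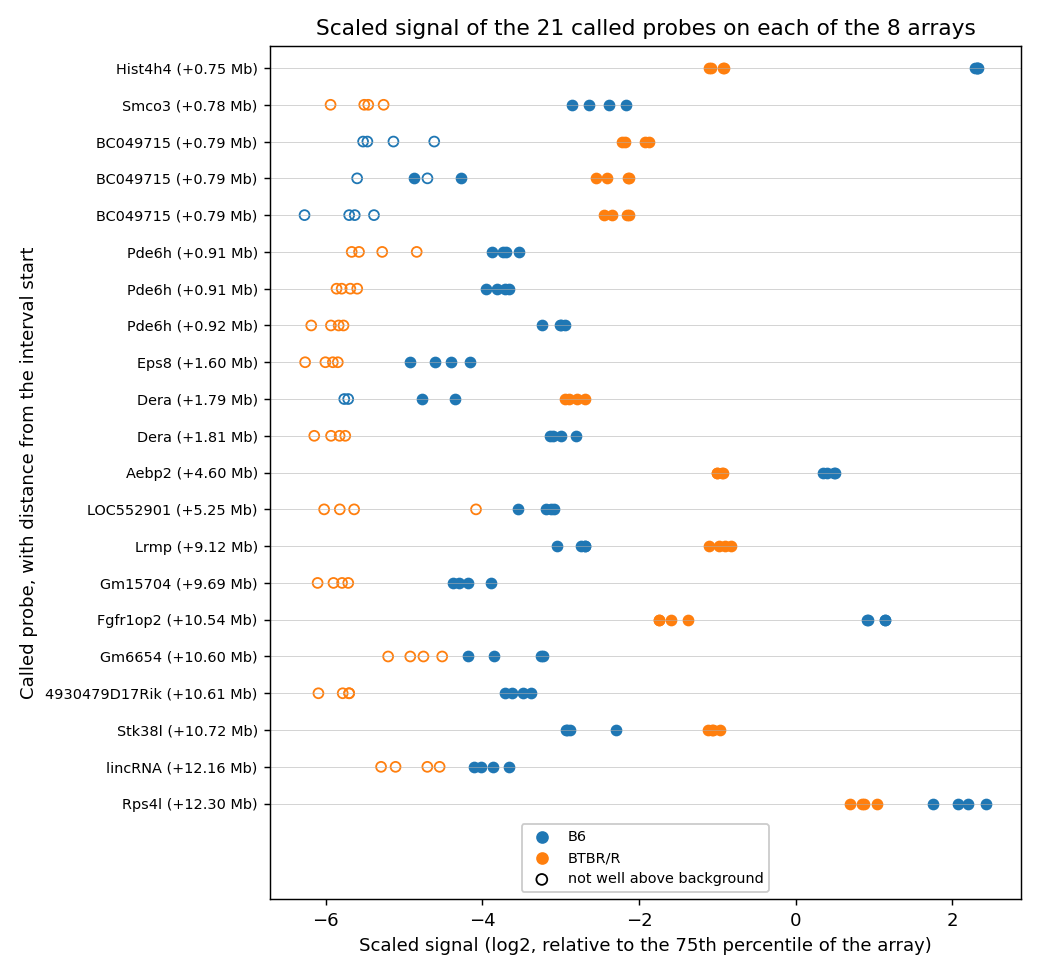
Scaled signal (horizontal axis, log2 relative to the 75th percentile of the array) of the 21 called probes on each of the 8 arrays, in order along the chromosome. Blue points are B6 mice, orange points BTBR/R mice, and open points were not well above background. On each of the 21 the blue and orange points stay apart, which the rule for a call itself favours. Of the 15 lower calls, 11 have only open BTBR/R points.

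Detection sets how firmly the 21 can be read. Of the 15 lower calls, 4 were detected on all 8 arrays (Hist4h4, Aebp2, Fgfr1op2 and Rps4l) and 11 on no BTBR/R array. Of those 11, 6 had a bound on the fold and 5 had none, because the B6 mean lay under the BTBR/R detection level. The bound reached 2-fold for Smco3 only. Of the 6 higher calls, 2 were detected on all 8 arrays (Lrmp and Stk38l), 2 on no B6 array and 2 on some B6 arrays. With the normexp background correction, which adds a fixed offset and so shrinks differences of dim probes, 11 of the 21 were still called, including all 6 detected on every array, and 1 other member was added, the Fgfr1op2 probe at 146537313. The 10 calls lost were the BC049715 probe at 136789015 (0.95 with normexp), the Pde6h probes at 136911715 (-0.37) and 136911944 (-0.58), and the Eps8 (-0.25), LOC552901 (-0.44), Gm15704 (-0.52), Gm6654 (-0.37), 4930479D17Rik (-0.68), non-coding RNA (-0.33) and 137786190 Dera (0.70) probes. All kept their sign. By that correction 1.45% of detected probes were called over the whole array.

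Smaller differences were also spread along the interval. Of the 123 members detected on all 8 arrays, 47 had an adjusted p under 0.05 at any fold, 16 higher and 31 lower in BTBR/R mice, where 26.9% of such probes did over the whole array, 13% higher and 13.9% lower. Their median difference was -0.07 over the interval and 0.00 over the rest of chromosome 6 and over all probes. The median size of the difference, without its sign, was 0.18 over the interval, 0.11 over the rest of chromosome 6 and 0.12 over all probes. Leaving out the 6 calls, 41 members passed that threshold below 2-fold, 14 higher and 27 lower.

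By role, the 8 lists of genes in the interval, of which 68 of 70 genes were on the array by name, gave the following. Among organic anion transporters of the Slco1 family, which carry thyroid hormone and bile acids, 3 probes of 2 genes were detected on all 8 arrays and their median difference was -0.27. The 2 probes of Slco1c1, the thyroxine transporter of the blood-brain barrier, differed in opposite directions. At 141511731 Slco1c1 was higher by 0.79 (SE 0.08) and at 141518164 lower by -0.56 (SE 0.06), each without overlap between strains. Slco1a4 differed by -0.27 (SE 0.10), which did not pass. The endothelial markers, which mark cells that carry these transporters, had a mean level of 1.49 to 1.53 in B6 mice and 1.31 to 1.46 in BTBR/R mice. Of the 4, Cldn5 passed lower, Slc2a1 passed higher, and Pecam1 and Flt1 did not pass, and their part in the Slco1c1 values was not tested.

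Of the channel genes, 3 probes were detected on all 8 arrays and 1 passed, with a median of -0.20, where 26.9% of all probes detected on all 8 arrays passed, 13% higher and 13.9% lower. Abcc9, the sulphonylurea receptor of vascular ATP-sensitive potassium channels, differed by -0.21 (SE 0.05), and its partner pore subunit Kcnj8 by -0.20 (SE 0.07), which did not pass. The mural-cell markers had a mean level of 0.64 to 0.69 in B6 mice and 0.57 to 0.70 in BTBR/R mice. Of 4 such probes of receptors, ligands and secreted proteins, with a median of -0.08, 1 passed beside that share of 26.9%, that of Mgp, the matrix Gla protein that inhibits calcification, at -0.63 (SE 0.15). Among 16 probes of GTPase signalling and adaptor genes 2 passed higher and 2 lower, with a median of 0.08, beside the shares of 13% and 13.9% over all probes.

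The 17 probes of cyclic nucleotide, lipid and phosphoinositide enzymes gave 4 passes higher and 3 lower (13% and 13.9% over all probes), with a median of -0.03, among them 4 probes of Bcat1, the cytosolic branched-chain aminotransferase, at -0.49, 0.26, -0.35 and 0.26 in order of position. Of 18 probes of transcription factors and chromatin proteins 1 passed higher and 9 lower, with a median of -0.22, beside those same shares and a median of 0.00 over all probes. They included the 3 probes of the DNA helicase Recql, at -0.89, -0.50 and -0.55, and the single higher one was Lmo3, a LIM-domain transcription cofactor, at 0.43 (SE 0.07). Of 10 probes of RNA, translation and mitochondrial genes 3 passed higher and 1 lower, with a median of 0.11, beside the same 13% and 13.9%. Asun, a subunit gene of the Integrator complex, passed higher at 0.57 (SE 0.05) and lower at -0.25 (SE 0.06), on different probes. Of 18 probes of the secretory pathway, transport and adaptors 1 passed higher and 8 lower, with a median of -0.15, beside 13% and 13.9% over all probes. The lower ones included Ccdc91, a partner of Golgi sorting adaptors, at -0.92 (SE 0.08) and -0.40 (SE 0.05), and Tm7sf3 at -0.40 (SE 0.06). The 34 probes in no list gave 4 passes higher and 5 lower, beside those same shares, with a median of -0.09. Among these 34 probes Rep15, an effector of Rab15, was the lowest of those under 2-fold at -0.84 (SE 0.06).

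The probes of a gene did not always move together. In the interval 28 genes had 2 or more probes detected on all 8 arrays. In 4 of them, Slco1c1, Bcat1, Asun and Plekha5, probes passed in both directions (14.3%), and over the whole array this was so in 251 of 6512 such genes (3.85%). In 6, Amn1, Atf7ip, Ccdc91, Fgfr1op2, Recql and Stk38l, 2 or more probes passed in 1 direction and none in the other (21.4%, with 12.4% over the whole array). In 7 a single probe passed and in 11 none. The probes of a gene all had the same sign in 15 of the 28 genes (53.6%), and in 57.6% of such genes over the whole array. No test of these shares was made.

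**Figure D5:**
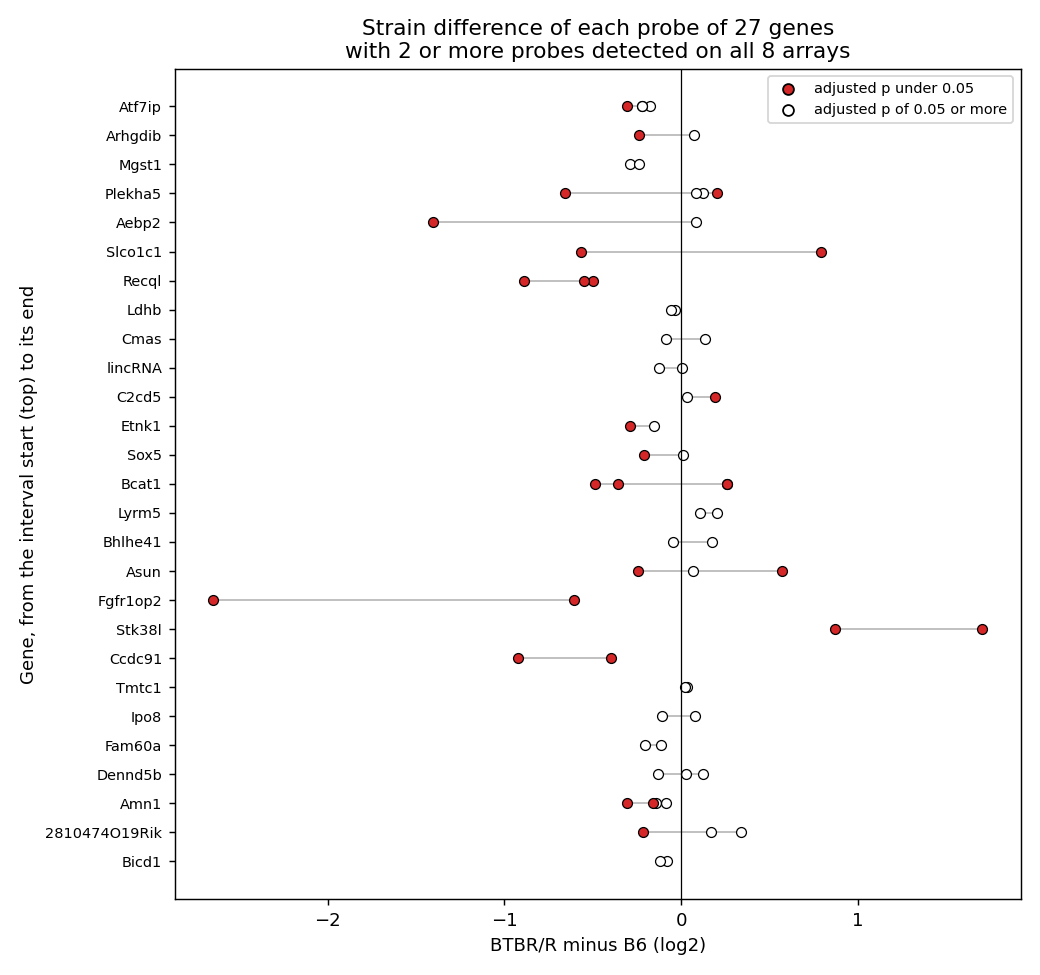
Difference between strains (horizontal axis, BTBR/R minus B6, log2) of each probe of 27 of the 28 genes with 2 or more probes detected on all 8 arrays, in order along the chromosome. Red points had an adjusted p under 0.05 over all probes and white points did not, and the grey line spans the probes of a gene. Slco1c1, Bcat1, Asun and Plekha5 have red points on both sides of 0, and both Stk38l points lie right of it.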

How the data were processed

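The 8 arrays were Agilent SurePrint G3 mouse 1-colour arrays, all on 1 slide and from 1 scan. The authors deposited Feature Extraction 10.7.3.1 spot intensities (processed signal background-subtracted and detrended) and GeneSpring log2 values, which equalled log2 processed intensity minus a constant per array. Control and outlier spots were left out, spots of a probe averaged, and log2 intensity minus the array's 75th percentile compared with limma 3.58.1 in R 4.3.3, over 56605 probes. In simulated data for this comparison over 56605 probes, 197 of 200 changed probes were recovered, with 6 false calls. The changed probes were drawn only from those detected on all 8 arrays, and no difference in background between strains was simulated. These figures therefore do not cover calls on probes undetected on arrays of 1 strain. Positions are mm9, from the arrays' annotation. Of 295 overlapping same-strand probe pairs, 290 shared at least 90% of the overlapping letters. RefSeq accessions gave symbols for 167 members, 16 differing from the array's name. The others kept the array's name alone, among them the called Eps8 and Fgfr1op2 probes and the Pde6h probe at 136917259. The members and lists were chosen with earlier results of these data known. Named genes are Dera, Fgfr1op2 and every gene with a detected, called probe, and up to 4 examples per list. An "at least" fold sets the brighter strain's mean against, on each array of the dimmer strain, the higher of the lowest detected signal and the probe's own. A few genes of the stretch are not reported here. Python 3.11.15, numpy 2.4.6, pandas 2.3.3 and matplotlib 3.10.9 were used. The number of arrays limits precision.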

Additional observations from a re-analysis of the deposited data

Results flagged for a closer look

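Among 58 groups of 4 mice examined for the named probes, 5 held a mouse set apart from the other 3 by more than Dixon's 95% limit, where chance gives about 1 in 20 groups. The Fgfr1op2 probe at 146537313 read -5.64 in BTBR/R replicate 1, with the other 3 BTBR/R mice from -0.24 to -0.10. The Stk38l probe at 146716966 read -2.29 in B6 replicate 3, above the other B6 mice at -2.93 to -2.88. The Lrmp probe at 145123146 read -3.04 in B6 replicate 1, below the other B6 mice at -2.74 to -2.68. The BC049715 probe at 136781598 held such a mouse in both strains, at -1.004 in BTBR/R replicate 3, the only array that detected it, against -5.96 to -5.18 in the other BTBR/R mice. In B6 mice, where it was not well above background on any array, it read -5.05 in replicate 1 and -5.41 to -5.36 in the others.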

How the results depend on the processing

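Counts of called members moved with the background correction, the detection filter and the fold. With the normexp background 12 members were called and 8 were lower in BTBR/R mice. Fitting only probes detected on all 8 arrays left 6 calls, 2 higher and 4 lower, because the filter removed the 15 called probes not detected on every array. Without a minimum fold 69 of the 166 detected members were counted (41.6%), where 27.8% of such probes were over the whole array. Leaving out each mouse in turn gave 20 to 23 calls, 6 to 7 higher and 14 to 16 lower, with a median difference of -0.07 to -0.06. Under quantile normalization, median scaling, the 75th percentile of detected probes, the authors' log2 values, a filter on dim probes, the methods' t-test and limma's trend and robust options, counts stayed within 1.5 times. Of 487 alternative values for 28 named probes, 18 changed call or sign, 12 of them with normexp. The only reversal was the uncalled Dera probe at 137730614, at -0.021 with normexp, and the cause was not tested. The non-coding RNA call at 148164018 was lost in 6 settings: normexp, quantile normalization, and without B6 replicate 2 or 4 or BTBR/R replicate 2 or 3. Replicate numbers did not pair the samples (correlations of 0.00, -0.07, -0.04 and 0.16 for numbers 1 to 4), and with a replicate block 21 members were called, 6 higher and 15 lower. A block for slide or scan was not run, since there was 1 of each. Probes under the detection level allow only a bound or no fold.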
